A study of Mus musculus with 2 samples.

Results

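The genes described here are 10 genes whose products build the brush border, the carpet of microvilli on the apical face of intestinal cells: Vil1, Ezr, Espn, Eps8, Eps8l2, Myo1a, Myo7b, Pls1, Slc9a3r1 and Anpep. They were chosen by name, and every non-control probe that carries one of these names was used, which gave 13 probes. The arrays held 34761 genes, counted by symbol or array name. Total RNA of CMT93 cells was labelled with Cy3 and hybridised to 2 one-colour Agilent arrays. These cells are a long-standing mouse line of colon carcinoma, grown in DMEM, whose donor was a C57BL/ICRF animal aged 19 months and whose tissue was the rectum. The control array held untreated cells, and the other array held cells given lipopolysaccharide (LPS), an outer membrane glycolipid of Gram-negative bacteria, for 24 h at 3 µg/mL. With 1 array per group there was no replicate to set a difference against, so no test was made, and the precision is limited by the number of arrays.

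Each microvillus of a mature enterocyte holds a core of parallel actin filaments that bundling proteins tie together. Motor proteins and linkers of the ezrin family attach this core to the membrane, and scaffold proteins hold transporters there. Cadherins at the tips join neighbouring microvilli, and digestive enzymes cover the membrane. Carcinoma lines of the large bowel differ in how much of this structure they keep.

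Signals are spot intensities after the background subtraction and detrending of the scanner software, and the error beside a signal is that software's own estimate. Differences are LPS minus control on the log2 scale, after the 75th percentile of each array (651 units in the control and 631 with LPS) was set to 0. The error after a difference is the SD over repeated spots of probes of like brightness on this slide, with a median of 0.05 over 242 probes. It covers the slide and not the cultures. The dimmest genes named below, such as Cdhr5, Lct and Ace, all took the same SD of 0.19, which may understate their error. Of 59082 spots used, 55.8% exceeded background clearly (the software's flag for well above background) in the control and 54.7% in the LPS sample. A gene was called measured where its brightest probe passed that flag on both arrays, which held for 20380 genes. All 8 epithelial marker genes examined were measured, among them Epcam, Cdh1 and Krt18. Of 8 genes known to respond to LPS, 7 were measured and each of the 7 was past 2-fold higher with LPS. The remaining gene, Saa3, passed the background flag with LPS only.

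Of the 10 brush border genes, 8 were measured. The peptidase gene Anpep and the villin gene Vil1 had the lowest differences, at 55.4% and 60.8% of their control levels. Ezr, Eps8, Myo1a, Eps8l2 and Slc9a3r1 were between 85.4% and 97.6%, and Pls1 stood at 108% of control. None of the 8 reached 2-fold in either direction, where 1.46% of all measured genes were at least 2-fold higher and 0.569% at least 2-fold lower. At the lower threshold of 1.5-fold, 2 members were lower and 0 were higher, where the shares over all measured genes were 2.66% and 3.59%, or 6.25% either way. Espn and Myo7b did not pass the background flag in the control or with LPS and have no fold. A gene enters these counts only if it was measured on both arrays.

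**Figure D1:**
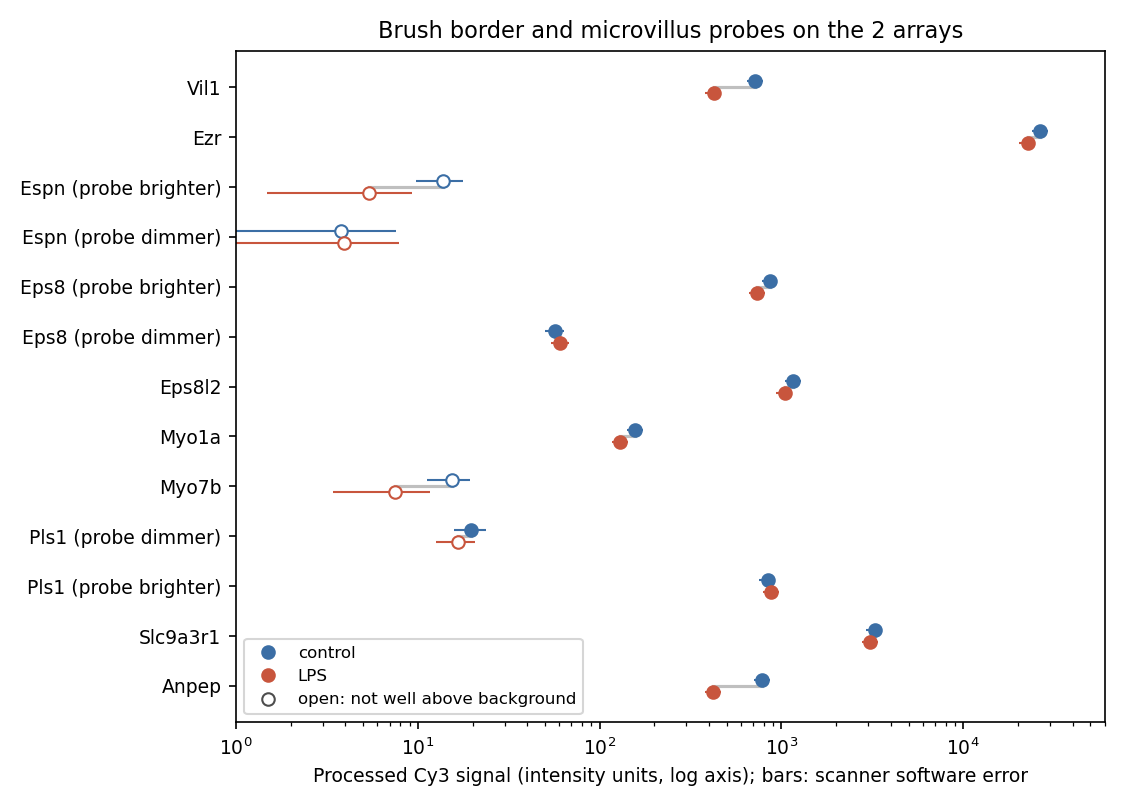
Processed Cy3 signal of each of the 13 probes on a log axis, with control in blue and LPS in red, and bars for the scanner software's error; open circles were not well above background, and a bar that reaches the left edge is as long as its signal. Vil1 and Anpep show the widest gaps among the probes above background, and the probes of Espn and Myo7b are open on both arrays.

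Anpep encodes aminopeptidase N, a membrane enzyme that trims peptides at the brush border. Its probe, on chromosome 7 at 86966716 to 86966775 (mm9), read 783 ± 78.3 in the control and 421 ± 42.2 with LPS. The LPS signal was thus the lower one, by more than the errors of the spots. The difference was -0.85 ± 0.06, or 1.80-fold lower. Only 0.942% of all measured genes had a lower difference. Among 1985 genes within 0.5 log2 units of its brightness the share was 0.705%.

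Vil1 encodes villin, which bundles actin filaments and severs them when calcium rises. Its probe, on chromosome 1 at 74481982 to 74482041, read 717 ± 71.8 in the control and 423 ± 42.5 with LPS. The difference was -0.72 ± 0.06, or 1.64-fold lower. This placed villin close to Anpep, and 1.59% of all measured genes and 1.31% of 1982 genes of like brightness had a lower difference. Neither gene has a further probe on the array, so no other probe bears on these values.

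The sequences before the starts of these genes are shown because they were the only members past 1.5-fold. They are the 250 bases upstream of the start that RefSeq gives in GRCm38.p6, 5′ to 3′ on the strand of the gene, at chr1:74409134-74409383 on the plus strand for Vil1 and at chr7:79848211-79848460 on the minus strand for Anpep. Capitals mark a CArG box, the motif bound by serum response factor.
Vil1: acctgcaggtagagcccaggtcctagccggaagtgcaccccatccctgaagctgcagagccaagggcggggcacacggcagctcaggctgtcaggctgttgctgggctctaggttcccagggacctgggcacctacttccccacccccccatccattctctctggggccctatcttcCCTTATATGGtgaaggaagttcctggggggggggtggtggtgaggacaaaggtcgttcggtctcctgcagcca
Anpep: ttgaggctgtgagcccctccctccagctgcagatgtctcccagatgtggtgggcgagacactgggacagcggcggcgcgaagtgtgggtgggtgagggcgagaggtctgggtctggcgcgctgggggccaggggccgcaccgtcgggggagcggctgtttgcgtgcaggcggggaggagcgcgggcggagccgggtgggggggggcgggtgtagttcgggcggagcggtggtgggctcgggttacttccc

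The Vil1 window holds 1 CArG box, which starts 73 bases before the gene start. This motif was searched after the sequence had been seen, and 1.47% of 32851 promoter windows of this length hold it. The Anpep window holds none. Anpep is also the richer of the pair in G and C, at 72.8% with 23 CpG sites against 62.8% with 5 CpG sites, and the median over all windows was 52.4% with 6 CpG sites. Neither window holds, on either strand, TTTAT (the core bound by CDX factors, in 37.3% of all windows), GTTAAT (part of the HNF1 site, in 6.43%), CAAAGTCCA (an HNF4 site, in 0.384%), an NF-kB site (in 1.41%) or TATAAA (in 12.4%). A match or its absence describes these letters only. In all, 10 windows of 8 members were searched. Windows on chromosome 18, where Myo7b lies, were left out, and none was used for Eps8. Beside the CArG box of Vil1 the only match in the 10 windows was TTTAT on the opposite strand of 1 Espn window.

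The measured actin-bundling genes other than Vil1 differed less. Eps8 encodes a protein that caps and bundles filaments at the microvillus tip. Its brighter probe, on chromosome 6 at 137426698 to 137426757, read 864 ± 86.4 and 734 ± 73.5. The error ranges of these signals overlapped, and the difference was -0.19 ± 0.06. The dimmer Eps8 probe, whose start lies 908 bases further along the gene at 137425790 to 137425849, read 56.8 ± 6.58 in the control and 60.7 ± 7.02 with LPS. That probe gave 0.14 ± 0.19, so the pair had opposite signs, and the dim probe's difference was within its spot error.

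Eps8l2, a relative of Eps8, was read by 1 probe on chromosome 7 at 148547806 to 148547865. Its signals were 1165 ± 117 and 1043 ± 104, a difference of -0.11 ± 0.05, and the ranges of their errors overlapped. Pls1 encodes plastin 1, the fimbrin of the brush border, and was the only measured member with a difference above 0. Its brighter probe, on chromosome 9 at 95654565 to 95654624, read 840 ± 84.0 and 877 ± 87.7, with overlapping error ranges and a difference of 0.11 ± 0.06. A further probe for an Ensembl transcript, 61115 bases away at 95715680 to 95715739, read 19.7 ± 3.97 in the control and 16.7 ± 4.02 with LPS. It passed the background flag in the control alone, with a bound of 1.13-fold lower with LPS, and the error ranges of its signals overlapped.

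Espn encodes espin, a strong actin bundler. Its 2 probes, on chromosome 4, start 42 bases apart and share 18 bases, so they are not separate measurements of the gene. One of them is printed to show that overlap, 5′ to 3′ as the array files give it, with the shared stretch in capitals.
Espn: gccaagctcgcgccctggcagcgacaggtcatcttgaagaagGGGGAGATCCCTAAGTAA
This probe, at 151495230 to 151495289, read 3.78 in the control and 3.94 with LPS, values that the scanner software had put in place of a signal at background. The other probe, at 151495188 to 151495247, read 13.7 ± 3.94 and 5.41 ± 3.92. Signals called well above background began at 15.9 in the control and 16.9 with LPS, and both probes lay under these levels.

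Of the motor genes, Myo1a encodes the class I myosin that bridges the actin core and the membrane. Its probe, on chromosome 10 at 127157778 to 127157837, read 157 ± 16.2 in the control and 130 ± 13.7 with LPS. The error ranges of these signals overlapped, and the difference was -0.23 ± 0.11. Of all measured genes 14.4% had a lower difference, and 23.1% of those of like brightness. Myo7b encodes the class VII myosin of the tip complex that joins neighbouring microvilli. It read 15.3 ± 4.15 and 7.54 ± 4.12, not well above background on either array, although the software's looser test called both spots positive.

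Of the linker genes, Ezr encodes ezrin, which ties actin to membrane proteins. Its probe, on chromosome 17 at 6942607 to 6942666, read 26569 ± 2657 in the control and 22568 ± 2257 with LPS, above 96.9% and 96.5% of all spots used. The difference was -0.19 ± 0.03, although the error ranges of the signals overlapped. Of 838 genes of like brightness 4.65% had a lower difference, against 18.1% of all measured genes. Slc9a3r1 encodes the PDZ scaffold EBP50, also called NHERF1, which binds ezrin and anchors transporters. Its probe, on chromosome 11 at 115042133 to 115042192, read 3259 ± 326 and 3082 ± 308, and the difference of -0.04 ± 0.04 was within its spot error.

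Over the 8 measured members the median difference was -0.19, and -0.02 over all measured genes. Differences below 0 were seen for 7 of the 8 and for 55.5% of all measured genes. The epithelial markers, listed apart from these members, had a median of -0.22 with 8 of 8 below 0 (Cdh1, at -0.01, was above 0 with median centring or the local median subtracted), and the lowest were Krt20, a keratin of mature surface cells, at -0.92 ± 0.12 and Epcam at -0.56 ± 0.03. Summed signals of the epithelial markers were 754522 in the control and 651796 with LPS. Most of these sums came from the keratin genes Krt18 (353848 and 311100), Krt8 (187535 and 159204) and Krt19 (149168 and 126819). Of 18 markers of fibroblasts, leukocytes and endothelium, 7 were measured and 8 were above background on neither array, among them Lyz2, Tyrobp, Lum and Cdh5. Pdgfra and Ptprc passed the flag in the control alone and Adgre1 with LPS alone. The summed signal of the 18 was 8571 in the control and 8579 with LPS, most of it from the endothelial list (5451 and 5449) and the leukocyte list (2909 and 2872). Most of the endothelial sum was a single Kdr probe, at 5359 in the control and 5362 with LPS. Another Kdr probe, printed 10 times, was above background on neither array, at 4.30 and 4.06. Csf1r (1575 and 1587) and Cd3e (1149 and 1117) made up most of the leukocyte sum. The fibroblast list summed to 212 in the control and 258 with LPS, and its 2 measured genes, the collagen genes Col1a2 and Col1a1, were higher with LPS, at 0.91 ± 0.14 and 0.33 ± 0.13 (0.52 and 0.24 with normexp). The part of cell makeup in the members' values was not tested. With RNA of whole cultures, fewer cells with microvilli and less of a transcript per cell cannot be told apart.

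**Figure D2:**
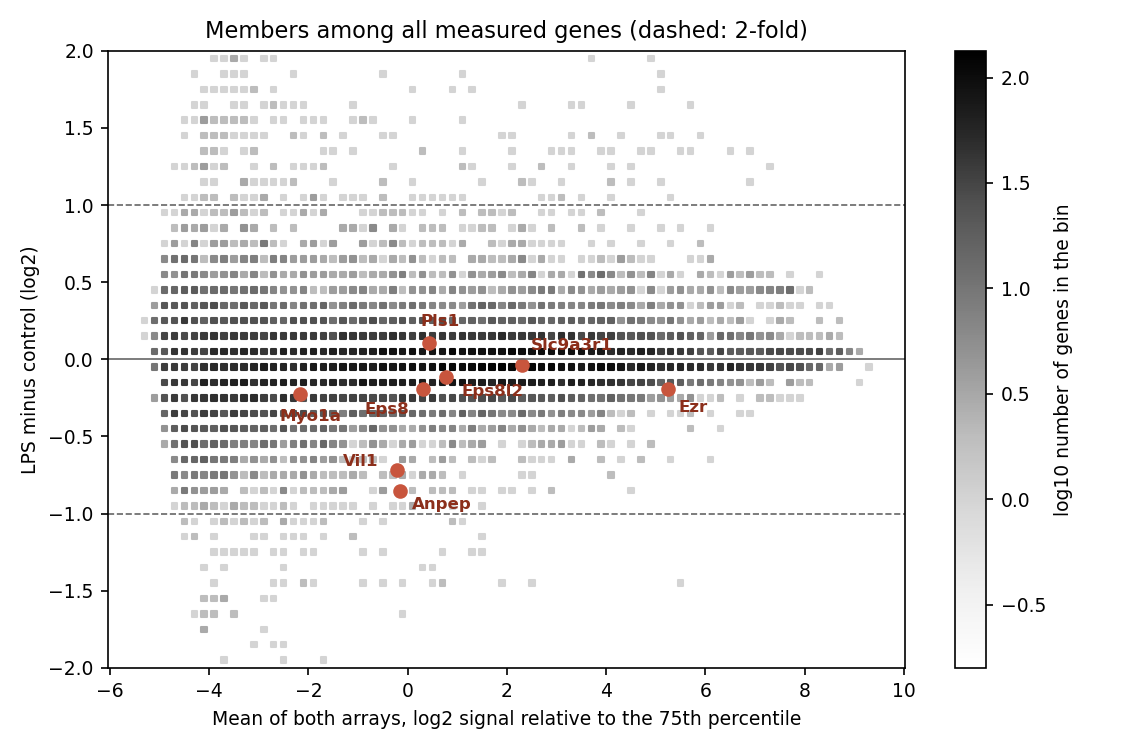
LPS minus control (log2) against the mean of both arrays (log2 relative to the 75th percentile), with grey squares for bins of all 20380 measured genes and red points for the 8 measured members; dashed lines mark 2-fold, and genes beyond the vertical range are not drawn. Anpep at -0.85 and Vil1 at -0.72 lie below the other 6 members, which sit between -0.23 and 0.11.

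Further genes were taken from lists of relatives and partners of the members and of brush border enzymes, transporters, actin genes and transcription factors. Some of these lists hold relatives and general actin genes that are not particular to the brush border. Without the transcription factor list, which is counted apart, these hold 126 genes, of which 89 were measured. Of the 89, 2 were at least 2-fold higher, 2 were at least 2-fold lower and the median was 0.04. Over all measured genes the shares were 1.46% and 0.569%, and with normexp 2 of the listed genes were at least 2-fold higher and 0 lower. Villin's relatives stood closer to 0 than villin itself. Of 5 measured, 0 were past 2-fold and the median was -0.01 (above 0 with cyclic loess, the local median subtracted or no background filter), with Vill and Gsn (gelsolin) at -0.29 ± 0.03 each, Capg at 0.33 ± 0.03 and Flii at 0.10. The ezrin relatives Msn (moesin), Rdx (radixin) and Nf2 (merlin) stood at 0.22 ± 0.03, 0.09 and -0.00, with a median of 0.09 and 0 past 2-fold.

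Among the relatives of espin and EPS8, Eps8l3 was past 2-fold. It read 850 in the control and 2161 with LPS, 2.62-fold higher, with a difference of 1.39 ± 0.05. Eps8l1 stood at -0.30 ± 0.09 and Espnl at -0.02 ± 0.09, so this family held genes of opposite sign, with a median of -0.02. Espnl, which is that median, was above 0 with normexp, cyclic loess or the local median subtracted. Of the plastin and fascin genes, the leukocyte plastin gene Lcp1 stood at 0.63 ± 0.11, Pls3 at 0.05 and Fscn1 at -0.04, with a median of 0.05 and 0 past 2-fold; a dimmer Lcp1 probe gave 0.17. Of 11 measured unconventional myosin genes, 0 were past 2-fold and the median was 0.18. Myo1g was highest at 0.82 ± 0.14 and Myo5c lowest at -0.30 ± 0.04.

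Slc9a3 encodes the sodium/hydrogen exchanger NHE3, which the product of Slc9a3r1 binds. It read 165 in the control and 66.8 with LPS, 2.39-fold lower, at -1.26 ± 0.13, and at -0.76 with normexp background correction, which is under 2-fold. A further Slc9a3 probe was not well above background on either array. The related scaffold gene Slc9a3r2 stood at -0.14 ± 0.06 and the chloride channel gene Cftr at -0.38 ± 0.19. Pdzk1 passed the background flag in the control alone, at 20.6. Its bound was 1.18-fold lower with LPS, which leaves out the error of the spots. A further Pdzk1 probe, above background on neither array, read 14.8 in the control and 15.2 with LPS. The median of this group was -0.38 over 3 measured genes. Relatives of Anpep went the other way from Anpep. Their 4 measured genes had differences from 0.10 to 0.45, with Npepps and Rnpep highest at 0.45 ± 0.03 and 0.21 ± 0.03, and 0 past 2-fold.

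The tip adhesion complex that contains the Myo7b product was measured in part. Cdhr5, a protocadherin gene, read 56.5 and 21.8, a difference of -1.33 ± 0.19, or 2.51-fold lower, that was -0.46 with normexp. Its binding partner Cdhr2 read 7828 and 8949, a difference of 0.24 ± 0.03. Calml4 stood at -0.18 ± 0.07, and the scaffold genes Ush1c and Anks4b were above background on neither array. The cadherin pair thus had opposite signs. The median of the 3 measured genes was -0.18. It was above 0 with no background filter, and among the brighter genes, which kept only Cdhr2.

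Of 14 measured genes of microvillus growth and membrane linkage, 0 were past 2-fold, with a median of -0.03. Clic5, whose product binds ezrin, stood at 0.91 ± 0.12 and the ezrin kinase gene Stk10 at 0.82 ± 0.05, from 1254 on the control array to 2153 on the LPS array. The lowest were Baiap2l1 and Cobl, which encode promoters of microvillus assembly, at -0.35 ± 0.06 and -0.34 ± 0.05. Apical trafficking genes had a median of -0.03 over 15 measured (above 0 with the median over probes or among the brighter genes), with 0 past 2-fold, Rab11a highest at 0.22 ± 0.03 and Ap1m2 lowest at -0.65 ± 0.14. Actin and actin-assembly genes had a median of 0.09 over 15 measured, with 12 above 0 and 0 past 2-fold. Among them Wasl, which encodes an activator of actin branching, stood at 0.25 ± 0.04, and the formin gene Fmnl2 was lowest at -0.34 ± 0.13. A dimmer Fmnl2 probe, above background on both arrays, had the opposite sign, at 0.20.

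Most brush border enzyme genes other than Anpep did not pass the background flag. Of 20 listed, 7 were measured and 12 were above background on neither array, among them Dpp4, Sis and Alpi. Treh (trehalase) passed the background flag in the control alone, with a bound of 2.42-fold lower with LPS. The 7 measured genes went either way, with a median of -0.22 (-0.11 with normexp and 0.11 with no background filter) and 0 past 2-fold. Enpp3 and Mgam were highest at 0.62 ± 0.19 and 0.54 ± 0.13, and Lct (lactase) and Ace lowest at -0.76 ± 0.19 and -0.58 ± 0.19. With normexp these were nearer 0, with Enpp3 at 0.32, Mgam at 0.38, Lct at -0.25 and Ace at -0.18. Of 15 transporter genes, 3 were measured and 11 were above background on neither array. Slc10a2, the apical bile acid transporter gene, read 24.6 in the control and 159 with LPS, 6.69-fold higher, at 2.74 ± 0.15 and at 1.35 with normexp. Slc26a6 stood at 0.33 ± 0.07 and Slc3a1 at -0.25 ± 0.19. The dimmer Slc26a6 probes, above background on both arrays, had the opposite sign, at -0.26 and -0.12. The median, which is that of Slc26a6, was 0.33, and it was -0.12 with the median over the probes of each gene and -0.32 with the looser background flag. The transcription factor genes known to drive this program had a median of -0.02 over 7 measured (above 0 with cyclic loess, the local median subtracted or the brighter genes alone), with 0 past 2-fold. Hnf4a stood at -0.21 ± 0.03, Cdx1 at -0.25, Gata4 at 0.09 and Srf, the gene of serum response factor, at 0.13. Cdx2 was above background on neither array.

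**Figure D3:**
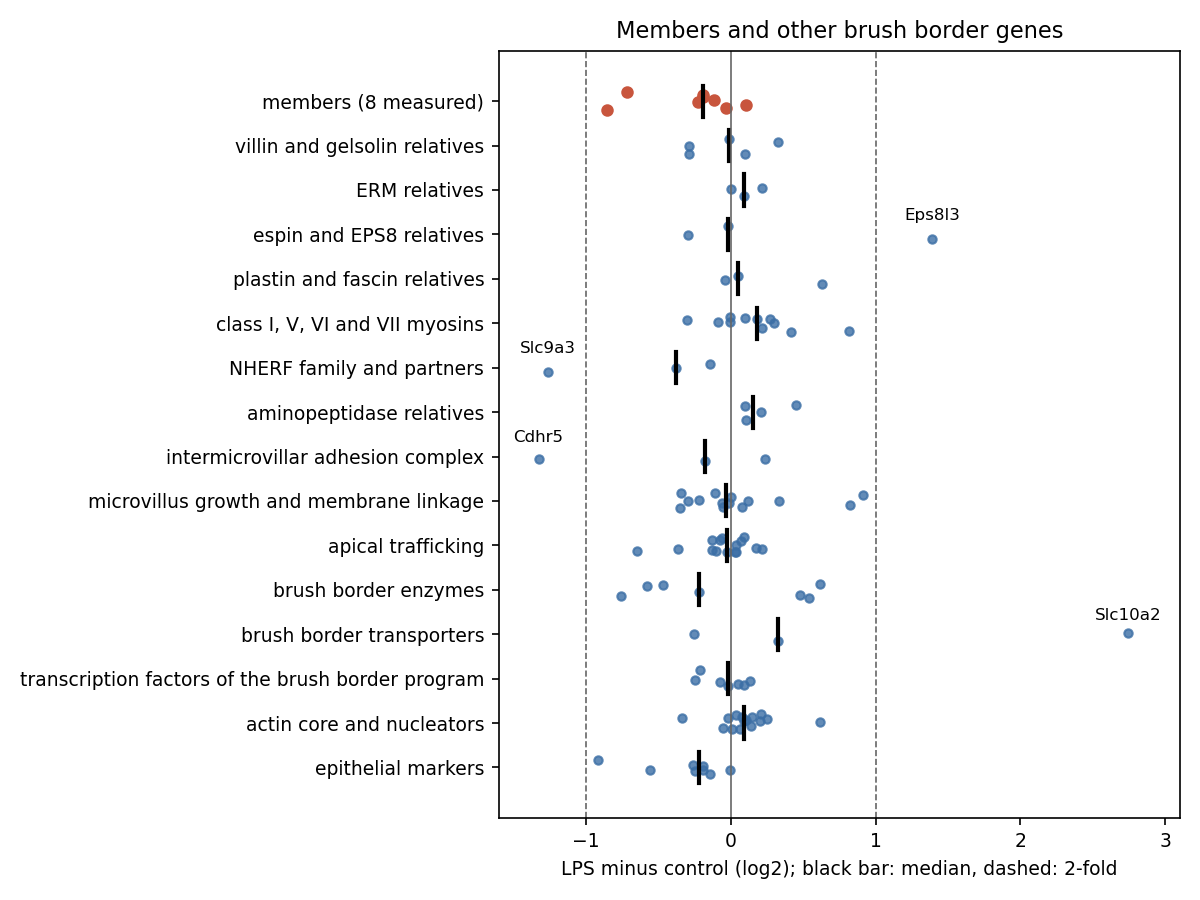
LPS minus control (log2) of each measured gene, 1 point per gene, with the members in red, the other lists in blue, and a black bar at each median; dashed lines mark 2-fold. Eps8l3 and Slc10a2 lie past 2-fold higher and Slc9a3 and Cdhr5 past 2-fold lower, while the 8 members lie inside the dashed lines.

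The signs of all 8 measured members were the same under each of the settings that measured them. Anpep ranged from -0.90 to -0.78 and Vil1 from -0.76 to -0.63, both past 1.5-fold and short of 2-fold throughout. Myo1a ranged from -0.27 to -0.13, Ezr from -0.24 to -0.14 and Eps8l2 from -0.16 to -0.08. Eps8 moved most, from -0.24 to -0.03, the latter with the median over its 2 probes. Slc9a3r1 ranged from -0.08 to -0.00 and Pls1 from 0.06 to 0.14. Spots within 10 rows and 10 columns of the 8 probes had median differences between -0.05 and -0.01, and with these subtracted Anpep stood at -0.80 and Vil1 at -0.69.

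**Figure D4:**
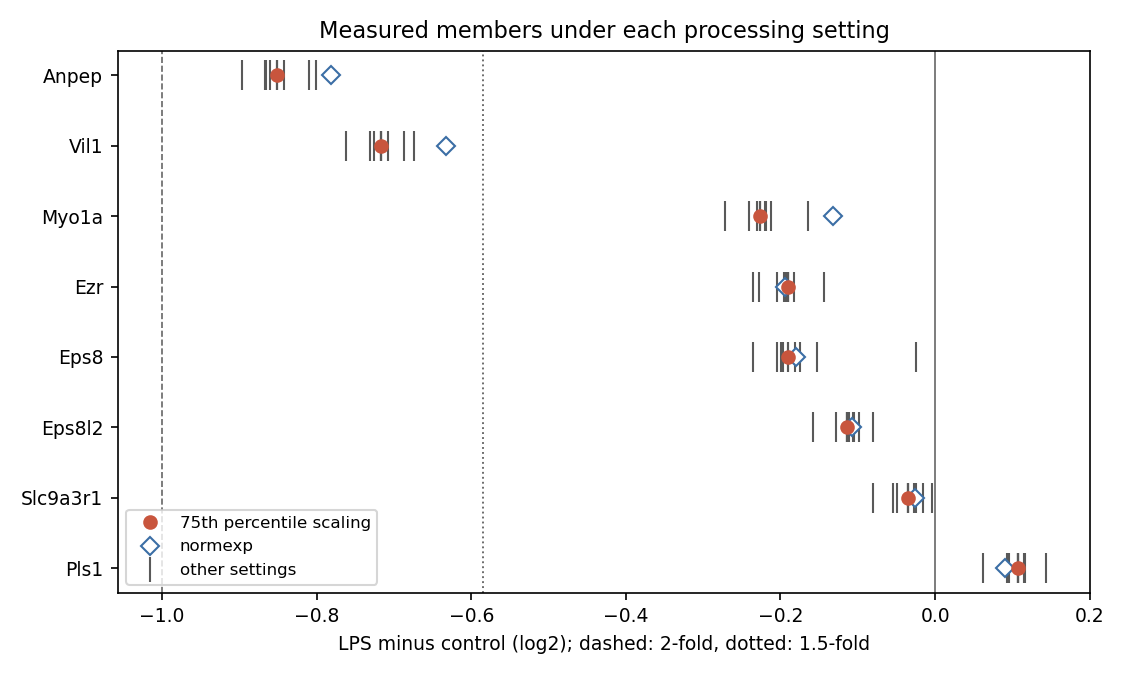
LPS minus control (log2) of the 8 measured members, with red circles for scaling to the 75th percentile, diamonds for normexp background correction and ticks for the other settings; the dotted line marks 1.5-fold and the dashed line 2-fold lower. Anpep and Vil1 stay between the dotted and dashed lines, and the tick nearest 0 for Eps8 is the median over its 2 probes.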

How the data were processed

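RNA of 1 control and 1 LPS-treated culture, grouped by the sample titles, was read on 2 arrays. Dose and time stand on both samples and were read as those of the LPS sample. Values are the deposited intensity of each spot, which per the file headers Agilent Feature Extraction 10.10.1.1 had background-subtracted and detrended, for probes of 60 bases placed on mm9. Exon and UTR positions were not analysed here.

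Control spots and 223 outlier-flagged spots were left out, and no spot used was saturated. Log2 intensity was scaled to the 75th percentile of each array. Members were matched by array name; other genes by the RefSeq (GRCm38.p6) symbol of the accession (28026 of 55677 probes) or else the array name. The brightest probe stands for a gene. Spot SDs are medians over the 31 probes nearest in brightness among those with at least 8 copies. Bounds use, for the dim array, its own signal or the lowest signal well above background, whichever is higher, and leave out the error of the spots.

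Genes are described by size, at 2-fold and 1.5-fold. Members and lists were chosen with earlier results of these data known. All members are named, and in each list only genes among the 2 highest and 2 lowest measured or past 2-fold; genes not above background on both arrays were named after their values were seen. Alternatives were normexp (offset 50), signal less background floored at 1, quantile normalization, cyclic loess (span 0.7), median centring, the percentile over detected probes, no scaling, other background filters, the median over probes and, added after seeing the data, a local median of neighbouring spots. Tools were Python 3.11.15, numpy 2.4.6, pandas 2.3.3, matplotlib 3.10.9, R 4.3.3 and limma 3.58.1.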

Additional observations from a re-analysis of the deposited data

How the results depend on the processing

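The median of the members stayed between -0.24 and -0.07 over 12 settings, and 0 members were at least 1.5-fold higher in any. With the looser background flag or no filter, which let Espn and Myo7b in, 1 member was at least 2-fold lower and 4 at least 1.5-fold lower. The brighter genes alone kept 4 members, with 0 at least 1.5-fold lower and a median of -0.075, since Anpep and Vil1 lie below that brightness. Over all genes, the counts at least 2-fold higher and lower were 171 and 37 with normexp, 747 and 556 with the looser flag, 1362 and 1179 with no filter, and 94 and 15 among the brighter genes, against 297 and 116. At 1.5-fold they were 453 and 198, 1628 and 1528, 2559 and 2464, and 221 and 75 in the same order, against 731 and 543. The genes counted numbered 20380, 24631, 34761 and 10190 in the same order, against 20380 in the main setting. The higher share of the 2-fold genes was 71.9%, and 82.2%, 57.3%, 53.6% and 86.2% in that order. The other settings kept each of these counts within 1.5 times. A filter sets which genes are counted, and the cause of the change with normexp was not tested. Among the smaller lists, the brighter genes alone kept only Cdhr2 of the intermicrovillar adhesion complex, at 0.24. Of the espin and EPS8 relatives they kept only Eps8l3, at 1.39. The median of all genes ranged from -0.07 without scaling to 0.05 with no background filter, against -0.02 in the main setting. No paired analysis was possible because each group has 1 array. Signal over background limits Espn, Myo7b and most of the enzyme and transporter genes, and the number of arrays limits every difference.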
